A study of Homo sapiens with 30 samples.

Results

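The genes described here are 32 genes of glycolysis and of glucose and lactate transport, chosen by name and found once each among the 60483 gene records of every library. They encode the transporters that bring glucose into the cell, the enzymes that split it into pyruvate, the enzymes and carriers that make lactate and export it, and the pyruvate dehydrogenase subunits and kinases that set how much pyruvate enters mitochondria. The samples were 30 cultures of PANC-1, an established epithelial cell line of a human pancreatic carcinoma, labelled wild type and grown as tumoroids in medium with little serum. The cultures formed 10 groups of 3 biological replicates. Tumoroids without synthetic cells (DSLB-free) and hybrid tumoroids with plain DSLBs, which are oil droplets wrapped in a lipid bilayer and here carried no protein, were the controls. In the other 8 groups the DSLBs carried recombinant PD-1, either alone or with a second protein (TIGIT, LAG3, ICOS, CTLA4, CD40L, CD27 or CD2), and these are called protein-bearing hybrids below. Every protein-bearing group carried PD-1, and no group carried another protein alone, so an effect of PD-1 and an effect of coupling any protein to the DSLB cannot be told apart. All groups are 1 cell line without immune or stromal cells, and only mRNA was measured, not glucose use or lactate.

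Glycolysis turns glucose into pyruvate in the cytosol with a small yield of ATP. Many tumour cells keep a high rate of it and convert pyruvate to lactate even with oxygen present. Several steps are served by more than one isoenzyme, and some of these are textbook targets of the hypoxia-inducible factors. Which genes of the set are bound by these factors in PANC-1 was not tested here.

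Summed expected counts ran from 21.9 to 60.5 M per library (median 40.6 M), and all 32 genes were among the 18424 that passed the filter on low counts. Libraries were ranked by their distance (chi-square per gene) from the other replicates of their group, relative to the distance between those others. No cutoff was set, and the first 4 are said below to stand apart. They were PD-1/LAG3 replicate 3 (ratio 8.88), DSLB-free replicate 2 (6.23), PD-1 replicate 1 (4.21) and PD-1/CTLA4 replicate 2 (3.44). PD-1/CD40L replicate 3 came next (2.42). All PD-1/CD2 replicates were far from each other (distances 35.8 to 47.4), which the ratio does not show. The results below are given without the 4 libraries where they rest on them. Of the 6 epithelial markers all were detected, with a summed level of 4560 to 5430 TPM (a level scaled to transcript length and library size) in the controls and 5840 to 6610 TPM in protein-bearing hybrids. This sum follows the keratins KRT8, KRT18 and KRT19, whereas the adhesion molecule CDH1 went from 33.5 to 49.2 TPM in the controls to 19.4 to 27.1 TPM without overlap, and EPCAM from 63.1 to 78.9 TPM to 46.7 to 63.4 TPM. The part of these differences in the results below was not tested. The 8 immune markers summed to at most 1.3 and 2.2 TPM, and CD3E was at 0 in all 30 libraries. The 6 stroma and vessel markers summed to 305 to 410 TPM in the controls and 133 to 253 TPM in protein-bearing hybrids, nearly all of it COL1A1, and the part of this difference in the results below was not tested. The mitochondrial share of counts overlapped between controls (3.19 to 5.19%) and protein-bearing hybrids (1.71 to 7.0%).

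The 32 genes differed widely in level. GAPDH was the highest, with a mean of 5362 TPM over the 30 libraries, followed by ALDOA (4360), ENO1 (2480), PKM (2075), PGK1 (2007), LDHA (1681) and TPI1 (1062). These 7 genes gave 83.9% of the summed TPM of the set. The lowest were SLC2A3 at 0.585 TPM, PDK3 at 6.54 TPM and HK2 at 7.82 TPM. Together the 32 genes made up 1.69 to 1.91% of all TPM in the 6 control libraries and 2.16 to 2.60% in the 24 libraries of protein-bearing hybrids, without overlap. These levels are relative within a library and come from bulk RNA. They do not tell whether the amount of an RNA per cell changed, or in which share of the cells.

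**Figure D1:**
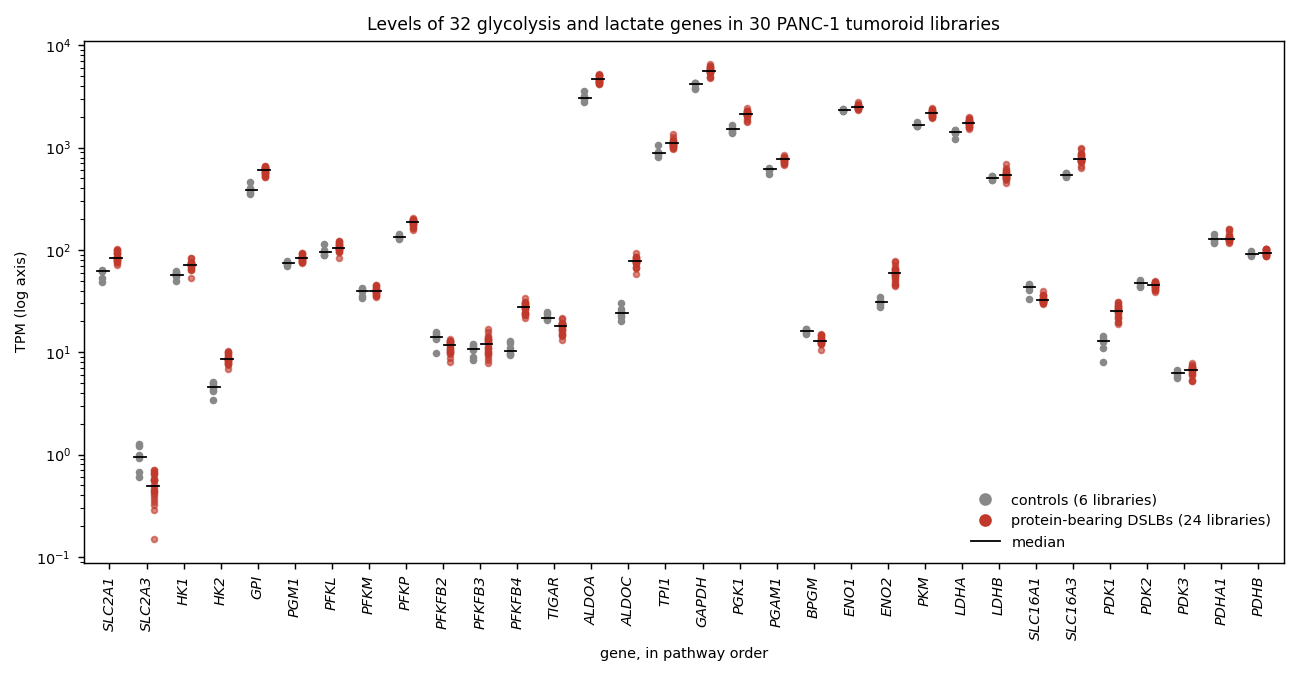
Level of each of the 32 genes in TPM (log axis) in the 6 control libraries (grey) and the 24 libraries of protein-bearing hybrids (red), with genes in pathway order and black lines at the medians. GAPDH and ALDOA lie at the top with means of 5362 and 4360 TPM, and SLC2A3 at the bottom with 0.585 TPM.

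The first comparison asks how tumoroids with protein-bearing DSLBs differ from both kinds of control, as the mean of the 8 protein groups against the mean of the 2 control groups. Of the 32 genes, 26 rose and 4 fell at an adjusted p under 0.05 (edgeR, quasi-likelihood test adjusted over all genes). The same test called 50.4% of all genes, 25.9% as higher and 24.5% as lower, so the comparison was broad, but the median log2 fold change of the 32 genes was 0.43 against 0.02 over all genes. Past the threshold with a log2 fold change above 0.5 were 13 of the 32 genes (6.42% of all genes), and above 1.0 there were 5 (1.18% of all genes). In 16 of the 32 genes, each of the 24 protein-bearing libraries lay above each of the 6 controls in CPM (counts scaled to library size by TMM, a normalization of edgeR), which was so for 4.43% of all genes. None of the 32 lay wholly below, which was so for 5.11% of all genes. A test of any difference among the 10 groups called 26 of the 32 (41.0% of all genes). Left without the 3 or 4 libraries that stood apart, the comparison called 31 genes, and the share of all genes in those fits is not given here.

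**Figure D2:**
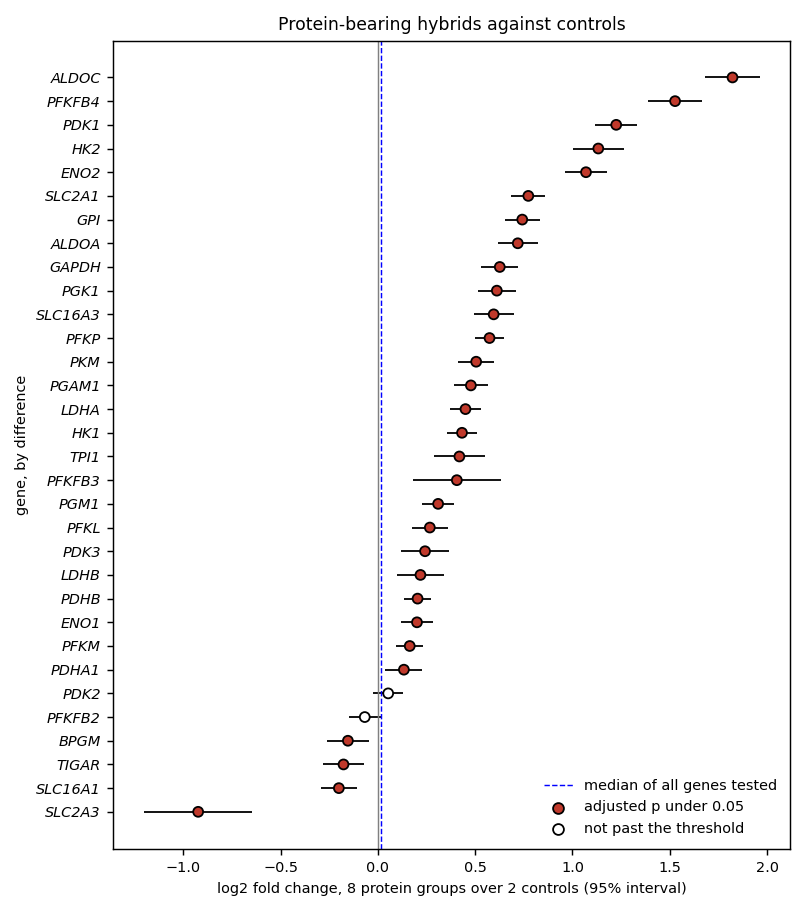
Log2 fold change of each gene, mean of the 8 protein groups over mean of the 2 control groups, with 95% intervals; filled points passed an adjusted p of 0.05 and the dashed line is the median of all genes. ALDOC (1.82) is at the top, PDK2 and PFKFB2 are the open points, and SLC2A3 (−0.92) is at the bottom.

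Glucose enters through facilitative carriers. SLC2A1, the widespread basal glucose carrier, was at 52.8 to 64.9 CPM in the controls (median 59.6) and at 86.2 to 116 CPM in the 24 protein-bearing libraries (median 101). The ranges did not overlap, and the gene rose by a log2 fold change of 0.77 (standard error 0.045, edgeR adjusted p = 6.47e-14). SLC2A3, a carrier of high affinity, went the other way, from 0.927 to 1.77 CPM in the controls (median 1.54) to 0.366 to 1.17 CPM (median 0.759). It fell by 0.92 on the log2 scale (with a standard error of 0.142, edgeR adjusted p = 4.20e-06), with 22 of 24 protein-bearing libraries below every control. This gene rests on as few as 12 counts in a library and shares sequence with the near-identical SLC2A14, and the posterior SD of its count was 2.59% of the count, the highest in the set. SLC2A3 gave 1.11 to 1.99% of the summed TPM of both carriers in the controls and 0.161 to 0.907% in protein-bearing hybrids.

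Hexokinases trap glucose as glucose 6-phosphate. HK2, the inducible form, rose from 12.3 to 18.1 CPM in the controls (median 14.9) to 26.3 to 39.5 CPM (median 33.1), a log2 fold change of 1.13 (standard error 0.066, edgeR adjusted p = 8.49e-14). HK1, the constitutive form, rose less, from 98.3 to 119 CPM (median 108) to 131 to 165 CPM (median 145), a log2 fold change of 0.43. Neither gene overlapped between controls and protein-bearing hybrids. HK1 stayed the main form, with HK2 at 6.45 to 8.42% of the summed TPM of both in the controls and 8.99 to 13.9% in protein-bearing hybrids. GPI, which converts glucose 6-phosphate to fructose 6-phosphate, went from 437 to 518 CPM (median 453) to 669 to 876 CPM (median 788), a rise of 0.74 on the log2 scale (edgeR adjusted p = 2.22e-13). PGM1, which links this pool to glycogen, rose by 0.31, from 105 to 122 CPM (median 112) to 122 to 159 CPM (median 138), with 23 of 24 libraries above every control.

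Phosphofructokinase commits the sugar to glycolysis, and fructose 2,6-bisphosphate, made and degraded by the PFKFB enzymes and degraded by TIGAR, is its strong activator. PFKFB4 showed the second largest difference of the set. It was at 14.2 to 23.3 CPM in the controls (median 19.8) and at 40.2 to 66.8 CPM in protein-bearing hybrids (median 55.9), a log2 fold change of 1.53 (standard error 0.071, edgeR adjusted p = 1.18e-15). Its share in the summed TPM of PFKFB2, PFKFB3 and PFKFB4 was 28.5 to 33.7% in the controls and 50.7 to 59.0% in protein-bearing hybrids, while that of PFKFB2 was 30.7 to 45.6% and 16.4 to 29.6%. PFKFB3 rose by 0.41 with a wider error (standard error 0.115, edgeR adjusted p = 0.0053) and overlapped, from 19.4 to 24.6 CPM (median 23.1) to 19.5 to 39.7 CPM (median 30.5). Its spread followed the replicate number, since replicate 1 was the lowest of the 3 in 8 of 8 protein groups, at 19.5 to 26.0 CPM against 27.7 to 39.7 CPM in replicate 2 and 25.4 to 36.4 CPM in replicate 3. No other gene of the set had the same replicate lowest or highest in all 8 protein groups. Over the 18424 genes tested, replicate 1 was lowest in all 8 for 40 genes (0.217%) and highest for 56 (0.304%). With a replicate block PFKFB3 had a log2 fold change of 0.38 (standard error 0.067, edgeR adjusted p = 3.91e-05). PFKFB2 did not pass, with a log2 fold change of −0.07 (95% interval −0.15 to 0.02), and had the opposite sign, 0.10, once a trend with gene length was removed. TIGAR fell by 0.18 on the log2 scale (edgeR adjusted p = 0.00677), from 14.4 to 18 CPM (median 16.6) to 11.3 to 17.7 CPM (median 14.6), and the ranges overlapped. Without DSLB-free replicate 3 it had an edgeR adjusted p = 0.0532 and missed the threshold.

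Of the phosphofructokinases themselves, the platelet form PFKP rose most. Its libraries ran from 194 to 231 CPM in the controls (median 204) and from 272 to 340 CPM in protein-bearing hybrids (median 304), without overlap, a log2 fold change of 0.57 (standard error 0.039, edgeR adjusted p = 1.73e-12). The liver form PFKL rose by 0.27, from 155 to 206 CPM (median 164) to 165 to 241 CPM (median 202). The muscle form PFKM rose by 0.16, from 47.3 to 58.3 CPM (median 50.5) to 54.2 to 64.6 CPM (median 57.4). Both overlapped with the controls. PFKP gave 47.8 to 51.7% of the summed TPM of all 3 in the controls and 53.7 to 59.1% in protein-bearing hybrids.

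Aldolase splits the sugar into triose phosphates. ALDOC, the form best known from brain, had the largest difference of the 32 genes and ranked 45 among all 18424 genes tested, ordered from the largest rise. Its control values were 21.9, 28.6 and 20.4 CPM without DSLBs and 21.8, 26.5 and 25.1 CPM with plain DSLBs, and its 24 protein-bearing libraries ran from 65.6 to 105 CPM (median 84.3). The lowest protein-bearing library was thus well above the highest control, and the gene rose 3.54-fold (log2 fold change 1.82 with a standard error of 0.071, edgeR adjusted p = 3.11e-17). ALDOA, the main form, rose by 0.72 (standard error 0.053, edgeR adjusted p = 7.65e-12), from 1589 to 2062 CPM (median 1699) to 2471 to 3357 CPM (median 2844), without overlap. ALDOC nonetheless gave only 0.673 to 0.853% of the summed TPM of both aldolases in the controls and 1.4 to 1.86% in protein-bearing hybrids. TPI1, which interconverts the trioses, rose by 0.42 with overlapping ranges, from 599 to 809 CPM (median 646) to 746 to 1215 CPM (median 879).

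The steps that yield ATP and pyruvate are served by the most abundant genes of the set. GAPDH, which is also a common reference gene for quantitative PCR, was at 2782 to 3332 CPM in the controls (median 3059) and at 4094 to 5498 CPM in protein-bearing hybrids (median 4688). It rose 1.54-fold without overlap (log2 fold change 0.63 with a standard error of 0.048, edgeR adjusted p = 2.21e-11). PGK1, the first ATP-forming enzyme of the pathway, rose by 0.61, from 886 to 1109 CPM (median 950) to 1209 to 1691 CPM (median 1479). PGAM1, a phosphoglycerate mutase, rose by 0.48, from 607 to 709 CPM (median 682) to 823 to 1058 CPM (median 937). PKM, the pyruvate kinase whose spliced forms are summed here, rose by 0.51, from 1699 to 2138 CPM (median 1777) to 2302 to 3048 CPM (median 2574). None of these overlapped. BPGM, which diverts the same intermediate to 2,3-bisphosphoglycerate, fell by 0.15 on the log2 scale (edgeR adjusted p = 0.0206), from 15.5 to 18 CPM (median 17.6) to 12.0 to 19.2 CPM (median 15.4), and overlapped. Its call was lost without DSLB-free replicate 2 or 3 or without plain DSLB replicate 2 or 3 (edgeR adjusted p between 0.0598 and 0.0697). GAPDH, PGK1, TPI1, ENO1, LDHA and PGAM1 have processed pseudogenes, with which reads could be shared, and the posterior SD of their counts was at most 0.12% of the count.

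The enolases parted in size. ENO2, the neuronal form, was at 35.7 to 45.4 CPM in the controls (median 41.8) and 64.1 to 103 CPM in protein-bearing hybrids (median 85.8), a log2 fold change of 1.07 (standard error 0.055, edgeR adjusted p = 4.53e-15) without overlap. ENO1, the ubiquitous form, rose by 0.20 (edgeR adjusted p = 0.000208) and overlapped, from 2241 to 2676 CPM (median 2355) to 2391 to 3227 CPM (median 2756). ENO2 gave 1.18 to 1.41% of the summed TPM of both in the controls and 1.73 to 3.13% in protein-bearing hybrids.

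On the lactate side, LDHA, the form that favours lactate production, rose by 0.45 without overlap, from 1344 to 1631 CPM (median 1429) to 1813 to 2350 CPM (median 2005, edgeR adjusted p = 4.59e-10). LDHB, which favours the reverse reaction, rose by 0.22 and overlapped, from 369 to 426 CPM (median 391) to 376 to 638 CPM (median 445). SLC16A3, the carrier known for lactate export, was at 450 to 562 CPM in the controls (median 528) and at 623 to 934 CPM in protein-bearing hybrids (median 777), a rise of 0.60 (standard error 0.052, edgeR adjusted p = 2.51e-10) without overlap. SLC16A1, a carrier that moves lactate in both directions, fell by 0.20 on the log2 scale (edgeR adjusted p = 0.000783), from 76.9 to 100.0 CPM (median 91.4) to 68.7 to 89.9 CPM (median 78.5), with 10 of 24 libraries below every control. SLC16A1 gave 5.56 to 8.18% of the summed TPM of both carriers in the controls and 3.12 to 5.14% in protein-bearing hybrids.

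**Figure D3:**
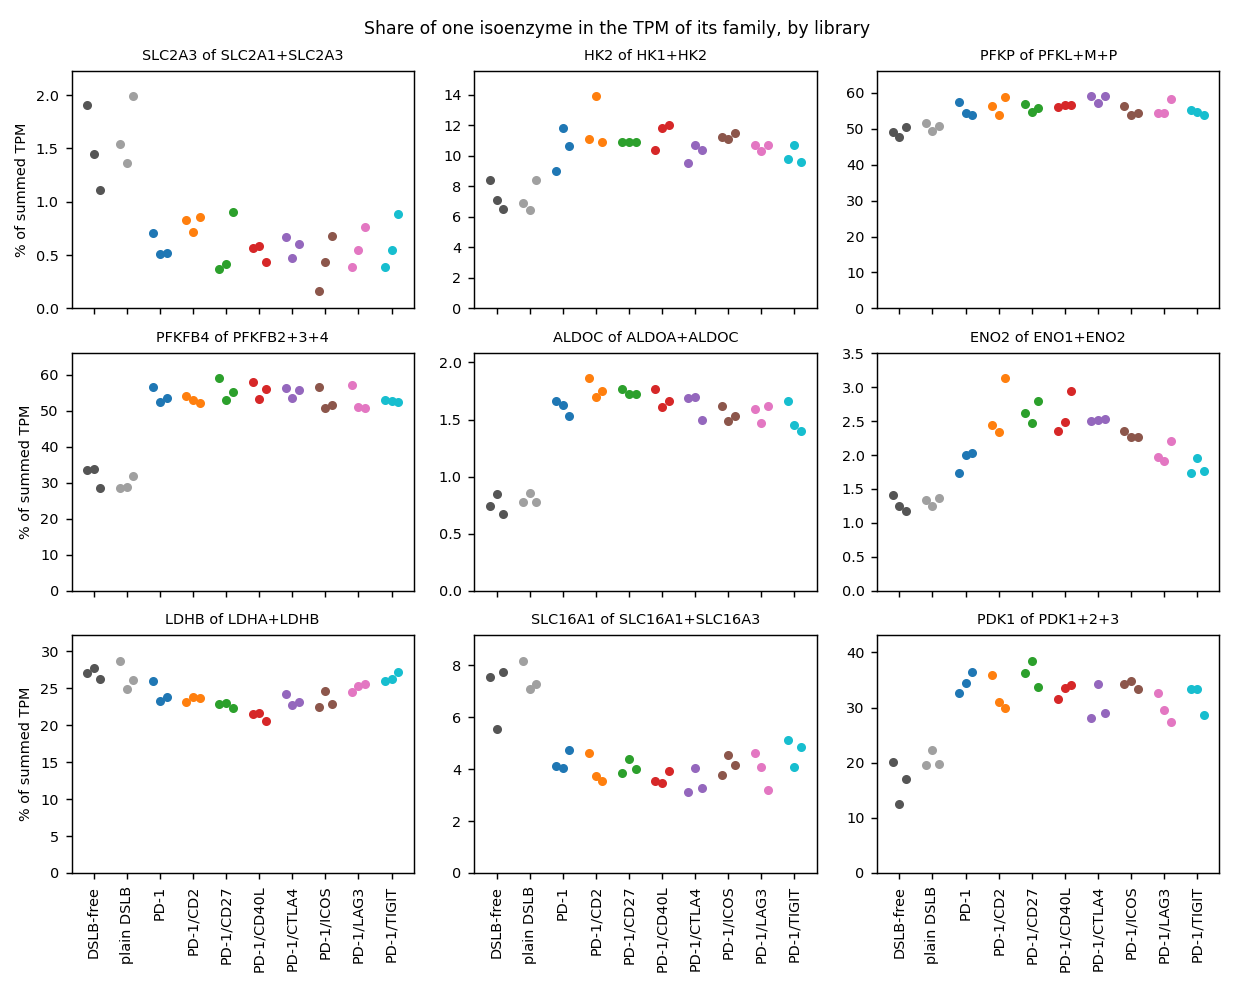
Share of 1 gene in the summed TPM of its family (% of summed TPM) in each of the 30 libraries, by group. For 8 of the 9 genes shown the 6 controls and the 24 protein-bearing libraries do not overlap, the exception being LDHB, and ALDOC rises from at most 0.853% to at least 1.4%. The genes shown were picked by name, 1 per family. Shares in other gene families were not computed, so this count has no background. Of the genes not shown in the families of PFKP, PFKFB4 and PDK1, the shares of PFKM, PFKFB3 and PDK3 overlap. Those of PFKFB2 and PDK2 do not, and those of PFKL meet at 34.4%.

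Pyruvate dehydrogenase sends pyruvate into mitochondria, and its kinases switch it off. PDK1 was at 21.2 to 27.8 CPM in the controls (median 25.9) and at 45.1 to 65.6 CPM in protein-bearing hybrids (median 59.3), without overlap, a log2 fold change of 1.22 (standard error 0.055, edgeR adjusted p = 3.32e-16). PDK3 rose by 0.24 and overlapped, from 6.52 to 7.79 CPM (median 6.94) to 6.52 to 10.0 CPM (median 8.31). PDK2 did not pass, with a log2 fold change of 0.05 (95% interval −0.02 to 0.13), and had the opposite sign, −0.02, once a trend with gene length was removed. PDK1 gave 12.5 to 22.3% of the summed TPM of the 3 kinases in the controls and 27.4 to 38.5% in protein-bearing hybrids. Of the subunits of the enzyme, PDHB rose by 0.20, from 78.8 to 86.7 CPM (median 83.6) to 86.7 to 111 CPM (median 94.2), with 23 of 24 libraries above every control. PDHA1 rose by 0.13 (edgeR adjusted p = 0.0237), from 53.1 to 61.4 CPM (median 55.0) to 53.0 to 76.8 CPM (median 59.8), and overlapped. Its call was lost under 10 of the 40 settings tried, 9 of which left out 1 library.

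**Figure D4:**
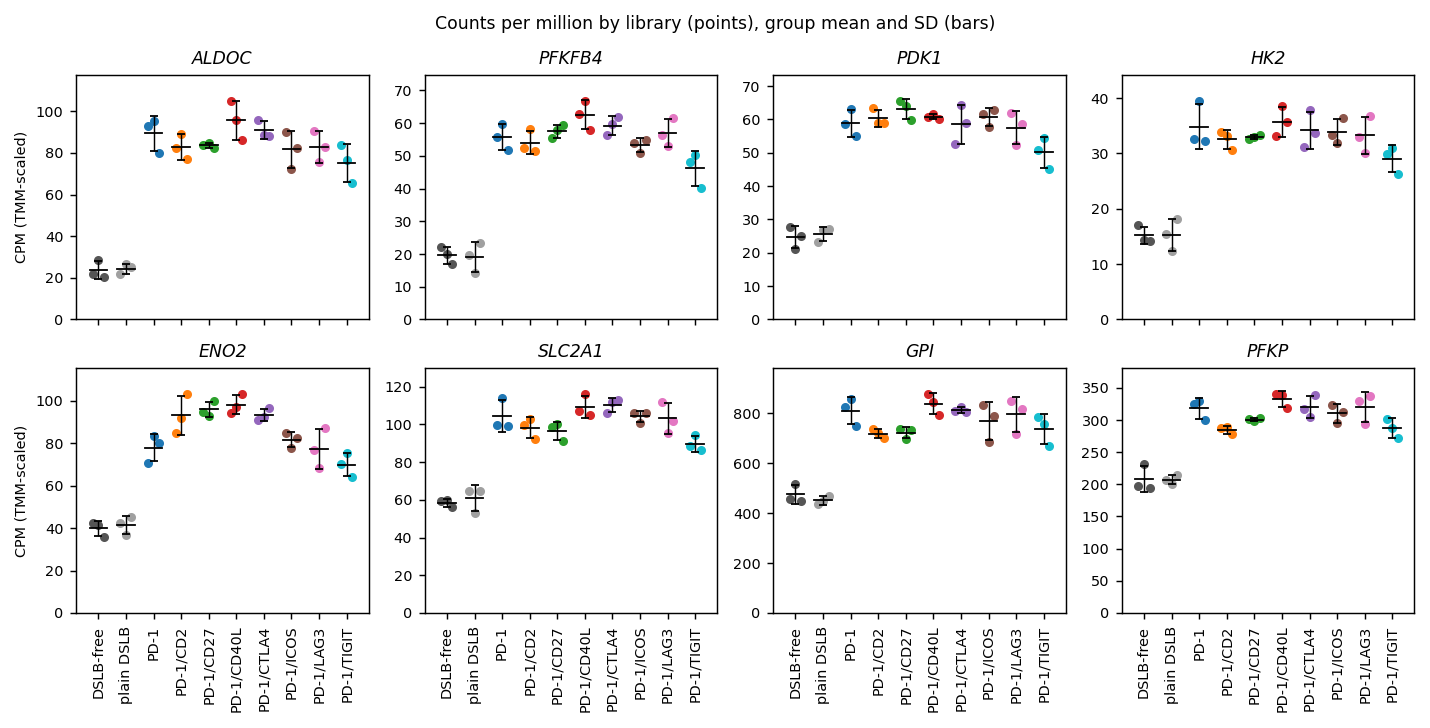
CPM of the 8 genes with the smallest p over all 10 groups, in each of the 30 libraries (points), with the mean and SD of the 3 replicates of each group; each axis starts at 0. For ALDOC the 6 control libraries lie at or below 28.6 CPM and the 24 protein-bearing libraries at or above 65.6 CPM.

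The promoters of the 5 genes with the largest rise in the first comparison are shown, and the genes were picked by that rise. Whether any sequence in these promoters has a part in the rise was not tested. Each window holds the 250 bases before a RefSeq transcript start (GRCh38.p14), printed on the strand of the gene, with the letters ACGTG, the core of the element that hypoxia-inducible factors bind, or their reverse complement CACGT in capitals. Where ACGTG and CACGT overlap, the letters spell CACGTG, a sequence bound by several helix-loop-helix factors. For HK2 and PDK1 the window with most matches is shown. All but that of ALDOC, which reaches across the gene's 5′ end, lie inside the GENCODE v44 span of their gene, upstream of an annotated start.
ALDOC, chr17:28576896-28577145, minus strand: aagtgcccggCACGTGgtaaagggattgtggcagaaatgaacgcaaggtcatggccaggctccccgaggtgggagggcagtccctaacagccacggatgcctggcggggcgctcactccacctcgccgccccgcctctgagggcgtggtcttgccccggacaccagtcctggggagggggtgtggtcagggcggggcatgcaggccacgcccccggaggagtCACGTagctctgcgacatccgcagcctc
PFKFB4, chr3:48556804-48557053, minus strand: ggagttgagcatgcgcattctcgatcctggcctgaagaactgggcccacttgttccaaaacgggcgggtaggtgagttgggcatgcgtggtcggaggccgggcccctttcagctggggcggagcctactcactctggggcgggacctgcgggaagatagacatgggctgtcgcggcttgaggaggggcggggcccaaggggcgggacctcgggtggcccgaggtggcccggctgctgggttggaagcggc
PDK1, chr2:172555840-172556089, plus strand: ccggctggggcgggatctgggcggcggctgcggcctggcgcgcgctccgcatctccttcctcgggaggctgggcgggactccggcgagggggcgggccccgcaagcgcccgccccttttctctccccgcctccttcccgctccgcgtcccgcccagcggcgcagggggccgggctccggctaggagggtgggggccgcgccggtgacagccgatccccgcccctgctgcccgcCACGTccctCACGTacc
HK2, chr2:74834920-74835169, plus strand: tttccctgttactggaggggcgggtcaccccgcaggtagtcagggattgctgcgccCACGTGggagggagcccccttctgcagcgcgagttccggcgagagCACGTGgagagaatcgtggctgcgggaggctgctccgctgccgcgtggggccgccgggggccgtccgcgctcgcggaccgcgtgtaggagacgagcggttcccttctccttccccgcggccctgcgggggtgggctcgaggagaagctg
ENO2, chr12:6914330-6914579, plus strand: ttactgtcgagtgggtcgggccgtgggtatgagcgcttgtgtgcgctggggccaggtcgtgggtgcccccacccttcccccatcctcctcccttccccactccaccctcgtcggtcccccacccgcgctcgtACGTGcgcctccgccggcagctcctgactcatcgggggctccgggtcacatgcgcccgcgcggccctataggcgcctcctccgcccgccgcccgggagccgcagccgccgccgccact
The ALDOC window held 3 matches counted on both strands, that of HK2 held 4, that of PDK1 held 2, that of ENO2 held 1 and that of PFKFB4 none. Only ACGTG and CACGT were counted as matches. The PFKFB4 window holds GCGTG, another form of the core, which was not searched for in any window. Over the whole set, 20 of the 29 genes with a window in the table held at least 1 match (69.0%), against 28.0% of the 12379 tested genes with a window. Counted by window, the shares were 39.0% of 59 against 21.8% of 17851. CACGTG was found in 8 of the 29 genes (27.6%), against 10.9%. The set without a match holds PFKFB4, SLC2A1, HK1, PFKL, PGAM1, ENO1, PKM, LDHB and PDHA1, while TIGAR and BPGM, which fell, each have 1.

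Plain DSLBs by themselves gave no call among the 32 genes. Against DSLB-free tumoroids, 0 of 32 passed the adjusted edgeR test, 0 had an unadjusted p under 0.05 (6.1% of all genes), and DESeq2 on all libraries also called 0. The comparison called 0.0109% of all genes. The log2 fold changes ran from −0.12 to 0.37, with a median of −0.01, and the highest was that of SLC2A3, the gene of lowest count. The group means for ALDOC were 23.6 ± 4.36 and 24.5 ± 2.44 CPM (SD, n = 3 cultures each) without and with plain DSLBs, those for PDK1 24.7 ± 3.32 and 25.6 ± 2.19, those for HK2 15.2 ± 1.53 and 15.3 ± 2.93, and those for SLC2A1 58.4 ± 2.06 and 60.8 ± 6.95. For ALDOC, PDK1 and HK2 the difference was smaller than the SD of either group, and for SLC2A1 the values of 1 group overlapped with those of the other.

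Each protein-bearing group was then compared with plain DSLB hybrids, which separates the proteins from the droplets. All 8 comparisons share the 3 plain DSLB libraries, so they are not independent of each other. PD-1 alone called 24 of the 32 genes (22.0% of all genes), 23 as higher (11.3%) and 1 as lower (10.7%). With CD2 beside PD-1, 22 genes were called (29.6% of all genes), 21 of them higher (14.1%) and 1 lower (15.4%). CD27 gave 22 (23.8%), with 19 higher (12.4%) and 3 lower (11.4%). CD40L gave 25 (25.5%), with 22 higher (13.2%) and 3 lower (12.3%). CTLA4 gave the most, 28 (34.2%), with 25 higher (17.0%) and 3 lower (17.2%). For ICOS the count was 23 (19.6%), with 19 higher (9.81%) and 4 lower (9.8%). For LAG3 it was 25 (30.3%), with 24 higher (16.2%) and 1 lower (14.1%). TIGIT gave the fewest, 21 (22.5%), with 20 higher (10.9%) and 1 lower (11.6%). In all 8, the share called among the 32 genes was above that over all genes.

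In this second set of comparisons 18 genes were higher in 8 of 8. They were SLC2A1, HK1, HK2, GPI, PGM1, PFKP, PFKFB4, ALDOA, ALDOC, TPI1, GAPDH, PGK1, PGAM1, ENO2, PKM, LDHA, SLC16A3 and PDK1. SLC2A3 was lower in 8 of 8, and PDK2 and PDK3 were called in none. The shares of all genes higher or lower in 8 of 8 were not computed, so these counts have no background here. ALDOC ranged from a log2 fold change of 1.62 with TIGIT to 1.97 with CD40L, and PFKFB4 from 1.29 with TIGIT to 1.72 with CD40L. For PDK1 the range was 0.97 with TIGIT to 1.30 with CD27, and for HK2 0.94 with TIGIT to 1.23 with CD40L. SLC2A1 ranged from 0.56 with TIGIT to 0.86 with CTLA4, and GAPDH from 0.53 with TIGIT to 0.74 with CD40L. SLC16A3 ranged from 0.37 with TIGIT to 0.72 with CD40L. The remaining 11 genes were called in 1 to 6 of the 8, and among them PFKM was higher in 6, PFKL, ENO1 and PDHB in 5, LDHB in 4, and PFKFB3 and PDHA1 in 2. With a replicate block PFKFB3 was called in 7 of the 8. TIGAR was lower in 4, SLC16A1 in 3, and BPGM and PFKFB2 in 1 each.

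**Figure D5:**
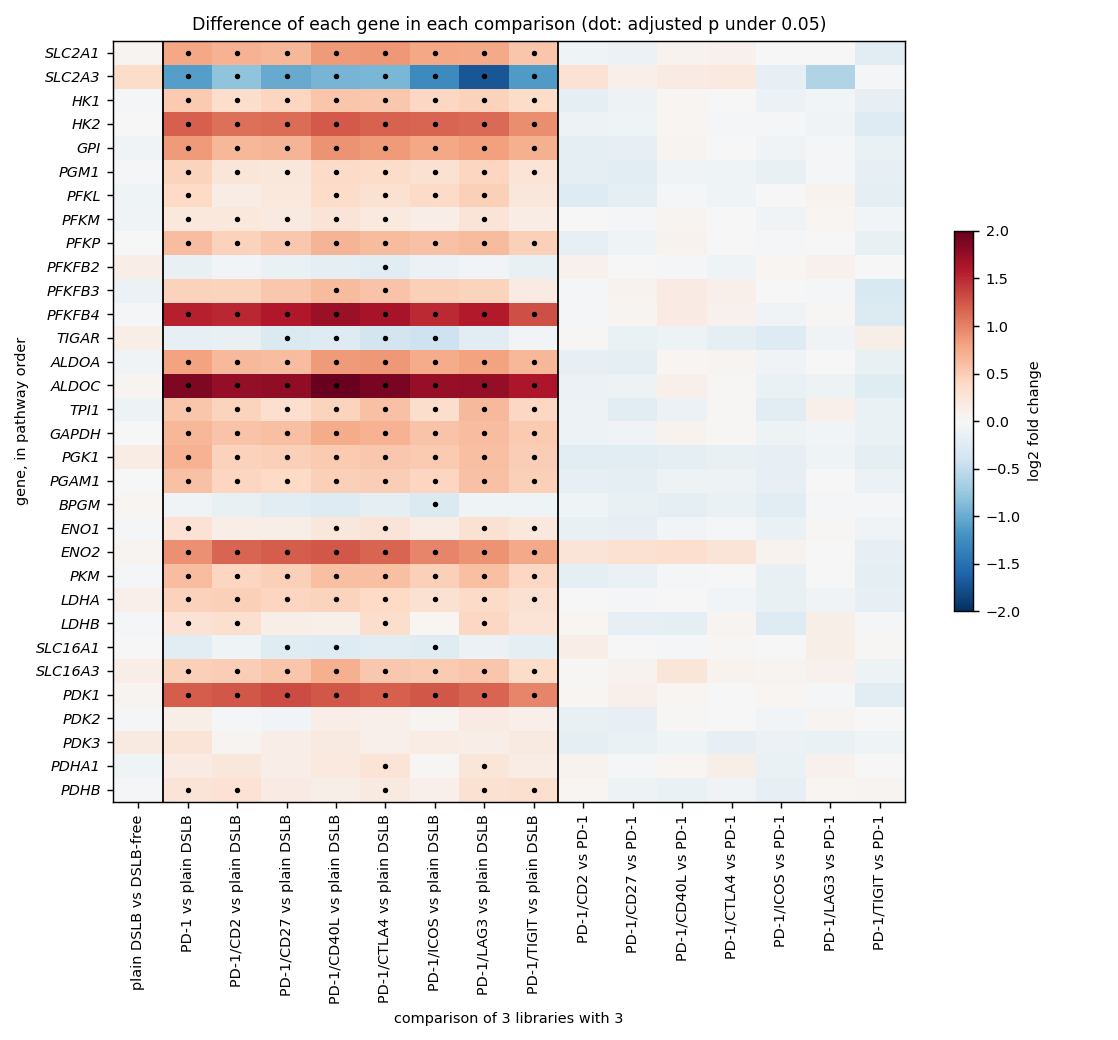
Log2 fold change (colour, red higher and blue lower) of the 32 genes in pathway order in 16 comparisons of 3 libraries with 3; a dot marks an adjusted p under 0.05. The column of plain DSLB against DSLB-free holds no dot, the 8 columns against plain DSLB hold between 21 and 28 dots, and the 7 columns against PD-1 hold none.

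The study's own question was what a second protein adds to PD-1, so each combination was compared with PD-1 alone. These 7 comparisons share the 3 PD-1 libraries. None of the 32 genes passed the adjusted edgeR test in any of them, at a background of 1.23% of all genes for CD2, 2.29% for CD27, 0.0109% for CD40L, 0.0434% for CTLA4 and 0.0% for ICOS, LAG3 and TIGIT. At an unadjusted p under 0.05 there were 11 of the 32 genes for CD2 (15.4% of all genes), 9 for CD27 (17.0%), 3 for CD40L (11.3%), 2 for CTLA4 (13.3%), 5 for ICOS (10.2%), 1 for LAG3 (5.71%) and 12 for TIGIT (3.70%). DESeq2 on all libraries called 2 for CD27 and 1 for CD40L. The median log2 fold change of the 32 genes was −0.09 for CD2, −0.10 for CD27, 0.03 for CD40L, 0.00 for CTLA4, −0.11 for ICOS, −0.01 for LAG3 and −0.14 for TIGIT, against −0.01 to 0.01 over all genes. With TIGIT, PKM had a log2 fold change of −0.20 (95% interval −0.36 to −0.04) and LDHA of −0.16 (95% interval −0.30 to −0.02), with an edgeR adjusted p = 1 for both.

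Among the 26 genes that rose over the controls, PD-1/CD40L had the highest group mean of the 8 protein groups for 11 genes and PD-1/TIGIT the lowest for 11. PD-1 alone was highest for 5 and lowest for 0, and PD-1/CD2 was lowest for 6. This is an order of means, and a joint test of any difference among the 8 protein groups, added after the data were seen, passed for 1 of the 32 genes (edgeR, 2.88% of all genes), with 14 at an unadjusted p under 0.05 (22.7% of all genes).

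That gene was ENO2 (edgeR adjusted p = 0.00723). Its values were 70.6, 83.2 and 79.9 CPM with PD-1 alone. A second protein gave 84.7, 91.6 and 103 CPM for CD2, 94.8, 92.7 and 100 CPM for CD27, 94.3, 97.0 and 103 CPM for CD40L, and 90.7, 92.5 and 96.5 CPM for CTLA4. Those for ICOS were 84.6, 77.7 and 82.5 CPM, those for LAG3 76.8, 68.1 and 86.9 CPM, and those for TIGIT 70.3, 75.2 and 64.1 CPM. The joint test picked ENO2 on these same values, so their order is only described, and the share of all genes ordered so was not computed. All libraries with CD2, CD27, CD40L or CTLA4 were above all 3 with PD-1 alone, whereas those with ICOS, LAG3 or TIGIT overlapped with them. Taken singly against PD-1, none of these differences passed: the log2 fold change was 0.33 for CD40L (95% interval 0.15 to 0.51, edgeR adjusted p = 0.144), 0.30 for CD27 (95% interval 0.12 to 0.48, edgeR adjusted p = 0.0692) and 0.26 for CD2 (95% interval 0.08 to 0.43, edgeR adjusted p = 0.149).

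Neighbouring pathways were read from the same comparison of protein-bearing hybrids with both controls, which called 50.4% of all genes, 25.9% as higher and 24.5% as lower. Of 16 genes of the tricarboxylic acid cycle, 10 rose and 0 fell, with a median log2 fold change of 0.12 and SDHD, an anchor subunit of succinate dehydrogenase, at 0.33. Of 6 pentose phosphate genes 3 rose (PGLS, TKT and PGD, by 0.12 to 0.31). Of 10 other glycolysis genes tested, 3 rose (PGAM2, ENO3 and G6PC3) and PGAM5 fell. The 8 other sugar carriers tested included 4 that rose, with SLC2A4 at 0.70 from a low level and SLC2A6, SLC2A11 and SLC2A8 at 0.16 to 0.28. Among the 8 genes of gluconeogenesis and glycogen tested, PCK2, the mitochondrial enzyme that makes phosphoenolpyruvate, rose by 1.22, GYS1 and GBE1 rose, and PC, the enzyme that carboxylates pyruvate, fell. BSG, the chaperone of the lactate carriers, rose by 0.25 and was the 1 gene called among 5 other carriers. PDK4 fell by 0.50 on the log2 scale, as did PDPR and PDP2 among the 7 other genes of the dehydrogenase, of which PDP1 rose. Of 13 mitochondrially encoded mRNAs 1 passed, MT-ND6, which was lower.

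Of 10 textbook targets of hypoxia-inducible factors outside glycolysis, 9 rose and EGLN3 fell (25.9% and 24.5% of all genes), with a median log2 fold change of 0.64 (0.02 over all genes). BNIP3, a mitophagy receptor, rose by 1.00, NDRG1 by 0.92, CA9, the tumour carbonic anhydrase, by 0.82, and VEGFA by 0.71. BNIP3L, ANKRD37, KDM3A, P4HA1 and ADM rose by 0.47 to 0.64. Over the same libraries the mRNA of HIF1A, the inducible factor itself, fell by 0.56 on the log2 scale (with a standard error of 0.048, edgeR adjusted p = 1.80e-10), and its 24 protein-bearing libraries, at 81.4 to 105 CPM (median 92.1), lay below every control. EPAS1 and ARNT fell by 0.19 and 0.10, while MLXIPL, a glucose-responsive factor, rose by 0.65 and MYC, MLXIP and TXNIP did not pass.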

How the data were processed

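Per the study's methods, the authors read directional libraries of total RNA as single reads, trimmed them with Trim Galore 0.3.3, mapped them with STAR (build hg38) and estimated abundances with RSEM. Not given in the sources used here are the annotation release, the RNA selection and whether counting used strand, so overlapping and antisense genes cannot be separated. The deposited expected counts are RSEM estimates per gene, not normalized. The deposited TPM values are length-scaled by the authors, and were used for levels between genes and family shares, not for tests. The authors' effective length and posterior SD per gene describe uncertainty.

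Expected counts were rounded. Genes were kept by filterByExpr (18424), scaled by TMM and tested with edgeR 4.0.16 (quasi-likelihood, robust, 1 model of 30 libraries, 1 mean per group, Benjamini-Hochberg threshold 0.05) in R 4.3.3. The study used DESeq2; DESeq2 1.42.0, limma-voom 3.58.1, RLE factors, no filter (39960 genes), fits of only 6 libraries, a length trend removed (spline, 5 degrees of freedom), a replicate block and leaving out each library were alternatives. The biological coefficient of variation was 0.0942. The steps were tested on simulated data. Promoter windows are RefSeq's.

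All 32 genes are named. Per the rule, other genes are named where past the threshold or of high level in their list; some genes of these lists are not reported here. The genes and lists were chosen with earlier results of these data known. The labels call the replicates biological. Per the study's methods, the conditions were made and processed as a set in 3 parallel replicates. No day or batch is named for a replicate number. Averaged over all genes, same-numbered samples did not deviate together. Single genes did follow the number: replicate 1 was lowest in all 8 protein groups for 40 of 18424 genes and highest for 56. The main model held no term for the replicate.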

Additional observations from a re-analysis of the deposited data

How the results depend on the processing

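In the comparison of protein-bearing hybrids with both controls, 28 to 31 genes were called when 1 library was left out and 29 to 31 under the other alternatives. Shares of all genes in these fits are not given here, so the counts have no background. Removing the length trend gave 29, and turned the sign of PFKFB2 (0.097, adjusted p = 0.031) and PDK2 (−0.016). It also turned, against plain DSLB hybrids, PFKFB2 with CD2 (0.162), CD27 (0.032), CTLA4 (0.016), LAG3 (0.14) and TIGIT (0.039), SLC16A1 with CD2 (0.052) and LAG3 (0.026), LDHB with ICOS (−0.022), and PDHA1 with ICOS (−0.067) and TIGIT (−0.006). SLC16A1 was not called after that removal in the first comparison (adjusted p = 0.0941). PFKFB2 was called as lower without DSLB-free replicate 2 (adjusted p = 0.0275) or without PD-1/CTLA4 replicate 2 (adjusted p = 0.047). Against plain DSLB hybrids, leaving out 1 library turned PDK2 with CD2 (0.014 without plain DSLB replicate 1 and 0.005 without PD-1/CD2 replicate 1, in a range of −0.093 to 0.014), PDK3 with CD2 (−0.103 without PD-1/CD2 replicate 2, in a range of −0.103 to 0.165) and TIGAR with TIGIT (0.003 without PD-1/TIGIT replicate 1, in a range of −0.101 to 0.003). The cause of these turns was not tested.

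Against PD-1 alone, the 0 calls for CD27 became 1 without a filter (ENO2), 2 by DESeq2 on all libraries (ENO2 and PGM1), 1 by edgeR on 6 libraries (ENO2) and 8 by DESeq2 on 6 libraries, of which ENO2 was higher and PGK1, TPI1, ENO1, PGM1, PFKL, ALDOA and PGAM1 lower. For CD40L they became 1, 1 and 2 without a filter, by DESeq2 on all and by DESeq2 on 6 libraries (ENO2, with SLC16A3 in the last). DESeq2 on 6 libraries called 7 for ICOS and 3 for TIGIT, all lower. The paper, from pairwise DESeq2 comparisons, reports no significant genes for TIGIT or ICOS beside PD-1, unlike these calls. Its text gives no threshold for significance, so the thresholds may differ. The calls here had no fold threshold, and their log2 fold changes were small, from −0.25 to −0.13. The cause of the difference from the paper was not tested. The joint test among the 8 protein groups called 8 genes without a filter, 2 with the length trend removed and 6 without 4 libraries that stood apart. It called 1 or 2 when 1 library was left out, and ENO2 was among them each time. Shares of all genes under these alternatives are not given here, so the counts have no background.

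When 1 library was left out, the calls against plain DSLB hybrids were 22 to 25 for PD-1, 19 to 23 for CD2, 17 to 19 for CD27, 21 to 24 for CD40L, 21 to 27 for CTLA4, 20 to 21 for ICOS, 23 to 26 for LAG3 and 20 for TIGIT. For CD27, ICOS and TIGIT every such count was below that with all libraries (22, 23 and 21). Shares of all genes in these fits are not given here, so the counts have no background. Averaged over all genes, same-numbered replicates did not deviate together (mean correlation of deviations 0.01 for the same number and −0.005 for others). Of 135 same-numbered pairs, 17 were over 0.1, and 13 of 30 libraries were closest to their own number. Single genes did follow the number, as replicate 1 was lowest in all 8 protein groups for 40 genes and highest for 56. With a replicate block 30 genes were called in the first comparison and 0 against PD-1. PFKFB3 was called in 7 rather than 2 of the 8 comparisons with plain DSLB hybrids. Its values followed the number in the protein groups but not in the controls, whereas the block holds the same shift for all groups. Depth limits SLC2A3 most.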

Other observations

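GAPDH and PGK1, both among the 32 genes, are used as reference genes in other assays, and the study's own quantitative PCR used GAPDH. That PCR measured Bfl-1 in hybrids with CD40L on the DSLBs, and the paper also reports Bfl-1 by western blot. No group here carried CD40L without PD-1, so GAPDH was not measured here in that condition. A list of 10 further common reference genes, chosen after the results above were seen, was read from the same comparison of protein-bearing hybrids with both controls. GAPDH (log2 fold change 0.63) and PGK1 (0.61) were followed by B2M (0.61), RPLP0 (0.51) and ACTB (0.32), and for each of these the 24 protein-bearing libraries lay above the 6 controls. TFRC, the transferrin receptor, went from 616 ± 24.9 to 432 ± 35.8 CPM (SD, n = 6 and 24 libraries), a log2 fold change of −0.51 without overlap. The smallest differences were those of TBP (0.05, edgeR adjusted p = 0.399) and GUSB (0.08, edgeR adjusted p = 0.0785), at 19.6 ± 1.54 and 44.8 ± 3.24 CPM in the controls. YWHAZ, PPIA, HPRT1 and SDHA had differences of 0.11 to 0.26 with overlapping ranges.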
